A study of Homo sapiens with 6 samples.

Results

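The integrin subunits described here are 10 genes, ITGA2, ITGA3, ITGA5, ITGA6, ITGAV, ITGB1, ITGB4, ITGB5, ITGB6 and ITGB8, chosen by name and found by their Ensembl identifiers among the 58302 genes counted in each library. All 10 had enough reads to be tested. The RNA-seq libraries are labelled as MDA-MB-231, a breast cancer cell line, and compared 3 repeats expressing a control shRNA with 3 repeats expressing Smyca shRNA #1, which targets the long noncoding RNA Smyca (gene MIR23AHG). The Smyca shRNA was cloned in the pLKO.1 vector, the groups otherwise shared the same line and culture, and only 1 Smyca shRNA was sequenced. The study called its 3 libraries per group biological repeats, and the p-values below measure only the spread between these libraries.

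Integrins are receptors that hold cells to the extracellular matrix. Each is a pair of one α and one β subunit that span the membrane, and the pair decides the ligand: collagens for α2β1, laminins for α3β1, α6β1 and α6β4, fibronectin and other proteins with an RGD motif for α5β1 and the αV integrins. Most β tails are linked to actin through talin, kindlin and other adaptors, while β4 is linked to keratin filaments in hemidesmosomes. The integrins αVβ6 and αVβ8 also bind the latency peptide of TGF-β and release the active cytokine, whose signaling the study examined.

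Normalized CPM, the scale used for levels, are read counts divided by the TMM library size, as counts per 1000000 reads. Total counts lay between 14999307 and 16501085 reads per library. Smyca was read through MIR23AHG, the gene under which it is annotated. The study describes Smyca as cut from a primary transcript that also holds a miRNA cluster, and reads of that transcript and of Smyca cannot be told apart in this count. In the control libraries MIR23AHG was at 25.0, 19.5 and 22.0 normalized CPM, against 10.5, 6.97 and 5.61 in the Smyca knockdown libraries. The groups did not overlap, and the log2 ratio of control over knockdown was 1.53 ± 0.26 (SE, n = 3 per group), with an adjusted p of 0.111 (edgeR quasi-likelihood test, Benjamini-Hochberg over 15075 genes), so that the targeted gene did not reach the threshold of 0.05. Control repeat 2 stood apart in its deposited values: its FPKM column followed its count column in 3.31% of genes, against 99.1 to 99.9% in the other 5 libraries. The whole reads behind that FPKM column were used as an alternative for this library, and which column belongs to it is not known. These reads lay close to control repeat 3, with a chi-square per gene of 2.93 over 10536 genes, where counting noise alone gives about 1, and far from the count column of the same library (92.4). Between the count columns of the 6 libraries this value was 23.1 to 138. With the FPKM reads, control repeats 2 and 3 were thus nearly alike, while the p-values of that alternative count them as separate libraries. The labelled cell line was checked against marker lists. Of 10 genes listed as markers of mesenchymal lines of this kind, 8 had over 100 counts in every library, among them MSN (341 to 767 normalized CPM), FOSL1 (81.5 to 255), VIM (71.2 to 305) and CD44 (9.31 to 37.2), while LOX had 23 to 81 counts and SPARC at most 11. All 6 epithelial markers had over 100 counts in every library as well, including CDH1 (71.5 to 300 normalized CPM), which MDA-MB-231 is known to express little of, and EPCAM (236 to 336). Of 10 gut markers, 3 passed 100 counts in every library, among them VIL1 (220 to 501) and HNF4A (65.4 to 194), and CDX2 had 95 to 168 counts, while CDX1 had 0, FABP1 at most 3, KRT20 and GPA33 at most 6, LGALS4 5 to 21 and CDH17 11 to 67. The level of CDH1 went against the labelled line, while 8 of the 10 listed markers were present, and the libraries are named by their labels. The summed level of the 10 gut markers was 329 to 574 normalized CPM in the control and 680 to 806 in the knockdown, without overlap, while the epithelial sums overlapped at 7115 to 8460 and 7597 to 10475. Of the 5 fibroblast markers, COL3A1, DCN and PDGFRA had at most 3 counts, LUM had 14 to 115 and PDGFRB 12 to 49. Of the leukocyte markers, PTPRC had 0 counts, CD3E at most 4 and CD14 6 to 25. The fibroblast sum was 1.66 to 10.3 normalized CPM in the control and 3.24 to 5.55 in the knockdown, and the leukocyte sum 0.8 to 1.66 and 0.381 to 1.19. The part that any of these lists plays in the values below was not tested. In such bulk libraries, fewer cells of a type and less RNA per cell cannot be told apart.

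In the reference genome GRCh38, the 10 genes lie on 7 chromosomes. The α genes are ITGA2 (chr5:52989340-53094779, plus strand), ITGA3 (chr17:50055968-50090481, plus), ITGA5 (chr12:54395261-54419266, minus), ITGA6 (chr2:172427354-172506459, plus) and ITGAV (chr2:186590010-186680901, plus). The β genes are ITGB1 (chr10:32887273-33005792, minus), ITGB4 (chr17:75721328-75757818, plus), ITGB5 (chr3:124761948-124901418, minus), ITGB6 (chr2:160099667-160200313, minus) and ITGB8 (chr7:20330702-20415754, plus). In GENCODE release 44, 966 exonic bases of ITGB6, 16.7% of its exons, are shared with a lncRNA of the same strand, so its reads are less certain than those of the others. The antisense genes that share 0.65 to 2.75% of the exons of ITGA5, ITGA6, ITGAV, ITGB1 or ITGB8 had at most 43 counts in any library.

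RefSeq promoter sequences (GRCh38.p14, from 250 bases before to 50 after a start) were given for 8 of the 10 genes, with 13 starts in all, and were searched on both strands for 4 motifs. TGACTCA, the AP-1 motif through which TGF-β and growth factor signals often act, was in 4.95% of 35116 promoters and in 1 of the 13, that of ITGA5. CACGTG, the E-box that Myc/Max dimers bind, was in 7.26% of promoters and in 1 of the 13, that of 1 start of ITGA6. GTCTAGAC, the palindromic Smad-binding element, was in 0.202% of promoters and in 0 of the 13. At so low a share, its absence from 13 promoters carries no information on Smad sites. GGGCGG, the GC box of Sp1, was in 45% of promoters and in 9 of the 13, which belong to 6 genes. A match of letters does not show that a site is bound. The sequences before the start are printed for ITGA5, the member with the largest difference between groups, and, at one of its starts, for ITGA6, which had a small one. Capitals mark the AP-1 and GC box letters in ITGA5 (chr12:54419267-54419516, minus strand) and the E-box in ITGA6 (chr2:172427086-172427335, plus strand), 5′ to 3′. The AP-1 match of ITGA5 begins at base -6, and its last base, the first transcribed one, is not printed.
ITGA5 promoter: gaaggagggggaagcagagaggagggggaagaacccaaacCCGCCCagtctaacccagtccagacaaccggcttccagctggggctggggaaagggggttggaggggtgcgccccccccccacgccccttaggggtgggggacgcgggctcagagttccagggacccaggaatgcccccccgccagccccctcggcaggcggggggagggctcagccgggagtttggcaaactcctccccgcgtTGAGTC
ITGA6 promoter: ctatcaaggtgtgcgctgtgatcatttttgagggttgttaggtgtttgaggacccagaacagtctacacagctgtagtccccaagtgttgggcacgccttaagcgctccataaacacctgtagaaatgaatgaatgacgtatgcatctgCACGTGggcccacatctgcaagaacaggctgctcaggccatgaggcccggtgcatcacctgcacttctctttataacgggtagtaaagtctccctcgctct

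By level, the β subunits ITGB4 and ITGB1 stood first. To compare genes, normalized CPM were divided by the length of the canonical transcript in kilobases. ITGB4 had a mean of 216 CPM per kilobase over the 6 libraries (range 133 to 446) and ITGB1, the β chain shared by the most α chains, 99.1 (71.2 to 140). ITGA6 followed with 42.2 (31.8 to 57.8), ITGB5 with 28.8 (23.4 to 37.6), ITGA5 with 27.2 (10.5 to 69.2) and ITGA3 with 20.3 (11.5 to 40.7). Lower were ITGA2 with 9.10 (5.47 to 14.1), ITGAV with 4.43 (3.66 to 5.22), ITGB6 with 1.3 (1.07 to 1.86) and ITGB8 with 0.352 (0.213 to 0.528). Each gene was above the next in 6 of 6 libraries, except that ITGB5 was above ITGA5 in 4 and ITGA5 above ITGA3 in 3, so these 3 neighbours could not be ordered. With the shorter gene lengths that underlie the FPKM values, ITGA6 and ITGB5 exchanged places and the others did not.

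Between the groups, 8 of the 10 genes were higher in the control and 2, ITGB6 and ITGB8, were lower, with a median log2 ratio of 0.20, against 53.4% higher and a median of 0.036 over all 15075 genes. The median of the members was 0.07 without control repeat 1, 0.10 without knockdown repeat 2, 0.38 without knockdown repeat 3 and 0.41 without control repeat 3. The largest differences were in ITGA5, ITGA3 and ITGB4, and 0 of the 10 met the DEG criteria (ratio of control over knockdown of at least 1.5 or at most 0.66, adjusted p under 0.05). Those criteria were met by 0.0265% of all genes. At an unadjusted p under 0.05 by edgeR there were 2 of the 10, ITGA3 and ITGA5, both higher in the control, where 19.2% of all genes were called in either direction and 10.4% in that one. The ratio was at least 1.5 in 3 of the 10, ITGA3, ITGA5 and ITGB4, and in 15.6% of all genes. DESeq2 called 1 of the 10 a DEG, ITGA3 (adjusted p = 0.036), where it called 5.55% of genes, and edgeR without a filter on low counts called 2, ITGA3 and ITGA5, where it called 3.01%. Without control repeat 3, edgeR called 3 members, ITGA3, ITGA5 and ITGB4, where it called 10.5% of 15449 genes.

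**Figure D1:**
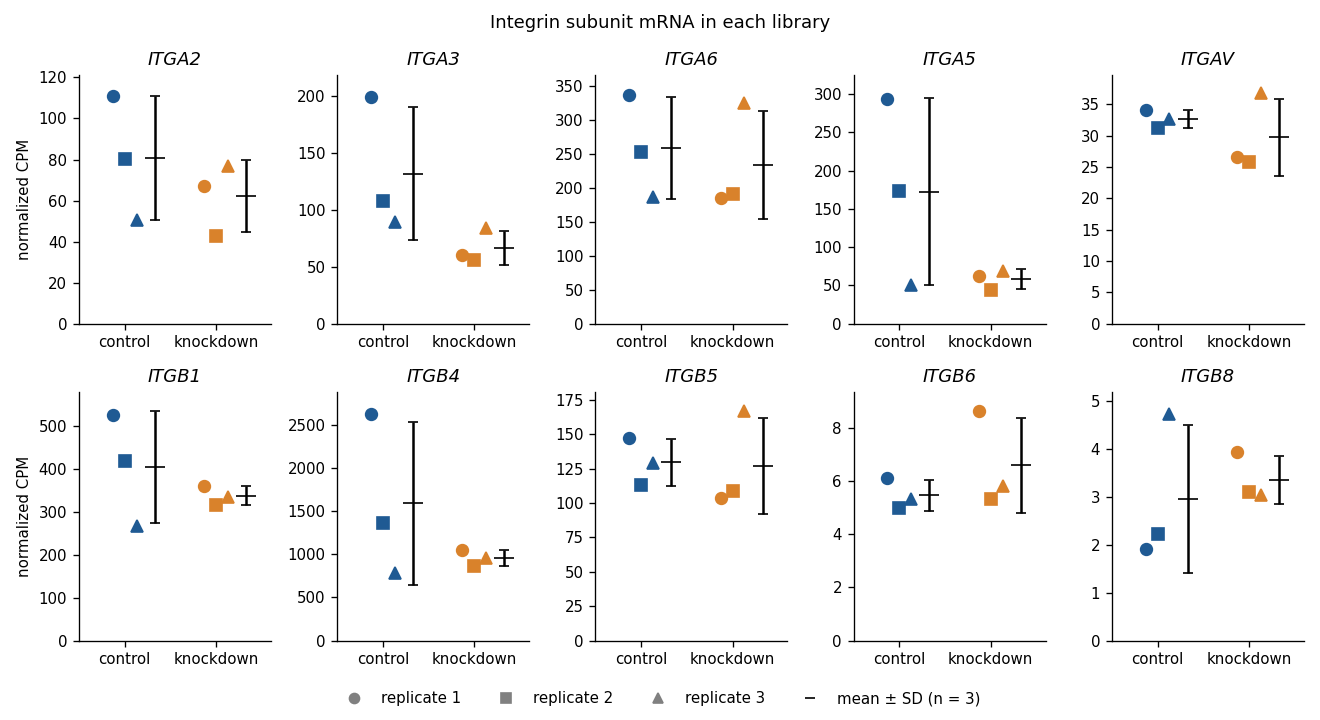
Normalized CPM (vertical axes, from 0) of the 10 integrin subunit genes in the 3 control (blue) and 3 Smyca knockdown (orange) libraries. Points are libraries, with the shape giving the repeat number, and bars are the mean ± SD. The control points of ITGA5 spread from 50.5 to 294, while its knockdown points lie between 44.7 and 69.5.

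Among the laminin receptors, ITGA3 was the one gene of the 10 whose groups did not overlap, where 24.8% of all genes were separated, 12.4% in this direction. ITGA3, the α chain of the laminin-332 receptor α3β1, was at 199, 108 and 89.0 normalized CPM in the control libraries and at 60.2, 56.3 and 84.1 in the knockdown libraries. All 3 control libraries were above all 3 knockdown libraries, although control repeat 3 exceeded knockdown repeat 3 by less than the spread within either group. The means were 132 ± 58.8 and 66.8 ± 15.0 (SD, n = 3), and the log2 ratio was 0.98 ± 0.30 (SE), with an edgeR adjusted p of 0.152. An exact two-sided permutation test gave p = 0.1, the smallest that 3 against 3 libraries allow. The log2 ratio was 0.56 without control repeat 1 and 1.19, with an adjusted p of 0.0285, without control repeat 3. Over all alternatives the adjusted p of ITGA3 lay between 0.0106 and 0.458.

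ITGB4, the β chain of hemidesmosomes, had the most reads of the 10. Its levels were 2629, 1363 and 786 normalized CPM in the control libraries and 1051, 860 and 961 in the knockdown libraries. Control repeats 1 and 2 were above every knockdown library and control repeat 3 was below every one. The log2 ratio was 0.73 ± 0.37 (SE), with an edgeR adjusted p of 0.319. It was 0.17 without control repeat 1 and 1.05, with an adjusted p of 0.0335, without control repeat 3. With the FPKM reads of control repeat 2, that library was at 820 normalized CPM, below every knockdown library, and the log2 ratio was 0.54 (edgeR adjusted p = 0.514).

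ITGA6, the α partner of ITGB4 in hemidesmosomes and of ITGB1 elsewhere, was at 336, 253 and 186 normalized CPM in the control libraries and at 185, 190 and 325 in the knockdown libraries. The groups overlapped over nearly their whole ranges, with 1 high library in each. Its log2 ratio was 0.15 ± 0.28 (SE, edgeR adjusted p = 0.8), and was -0.08 without control repeat 1 and 0.45 without knockdown repeat 3. The interval of 2 SE on each side ran from -0.41 to 0.71.

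ITGA5, the α chain of the fibronectin receptor α5β1, had the largest ratio of the 10 and the largest spread. It was at 294, 173 and 50.5 normalized CPM in the control libraries and at 61.7, 44.7 and 69.5 in the knockdown libraries. Control repeats 1 and 2 lay far above every knockdown library, and control repeat 3 lay among them. The highest control library was 5.82 times the lowest, while in the knockdown the highest was 1.55 times the lowest. The means were 172 ± 122 and 58.6 ± 12.6 (SD, n = 3), and the log2 ratio was 1.56 ± 0.52 (SE), with an edgeR adjusted p of 0.169. Without control repeat 1 it was 0.94, and without control repeat 3 it was 1.99, with an adjusted p of 0.00545. Control repeat 2 had 2812 reads of ITGA5 in the count column but 838 behind the FPKM column. With the latter, control repeat 2 too lay among the knockdown libraries, at 48.5 normalized CPM, the log2 ratio was 1.14 and the adjusted p 0.37.

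ITGA2, the α chain of the collagen receptor α2β1, was at 111, 80.4 and 50.7 normalized CPM in the control libraries and at 67.0, 42.9 and 76.7 in the knockdown libraries. Control repeat 3 was below 2 of the knockdown libraries, and the log2 ratio of 0.37 ± 0.30 (SE, edgeR adjusted p = 0.526) was 0.08 without control repeat 1, 0.16 without knockdown repeat 2 and 0.61, with separated groups and an adjusted p of 0.136, without control repeat 3. With the FPKM reads of control repeat 2, that library lay within the knockdown range and the log2 ratio was 0.13. ITGB1, the β partner of ITGA2, ITGA3, ITGA5 and ITGA6, was at 525, 419 and 266 normalized CPM in the control libraries and at 360, 316 and 335 in the knockdown libraries. As for ITGB4, control repeats 1 and 2 were above every knockdown library and control repeat 3 was below every one. Its log2 ratio was 0.26 ± 0.23 (SE, edgeR adjusted p = 0.571), and was 0.03 without control repeat 1 and 0.48 without control repeat 3. With the FPKM reads, control repeat 2 was below every knockdown library, at 263 normalized CPM, and the log2 ratio was 0.04.

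Among the αV integrins, the differences were small beside their errors. ITGAV, the α chain for ITGB5, ITGB6 and ITGB8 and a partner of ITGB1, was at 34.1, 31.3 and 32.7 normalized CPM in the control libraries and at 26.6, 25.8 and 36.8 in the knockdown libraries. Its control libraries were the closest together of the 10 genes, and knockdown repeat 3 lay above them. The log2 ratio was 0.14 ± 0.18 (SE, edgeR adjusted p = 0.703), with an interval of 2 SE on each side from -0.22 to 0.49, and was 0.04 without knockdown repeat 2 and 0.31, with separated groups, without knockdown repeat 3. ITGB5, the β chain of the vitronectin receptor αVβ5, was at 147, 113 and 129 normalized CPM in the control libraries and at 104, 109 and 167 in the knockdown libraries. Knockdown repeat 3 was again the highest, and the log2 ratio was 0.04 ± 0.21 (SE, edgeR adjusted p = 0.939) and changed sign, to -0.06, -0.10 and -0.07, without control repeat 1, knockdown repeat 1 and knockdown repeat 2. Without knockdown repeat 3 it was 0.28, with separated groups, and its interval of 2 SE with all libraries ran from -0.39 to 0.46.

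The TGF-β-activating β chains were at the lowest levels. ITGB6 was at 6.11, 4.98 and 5.31 normalized CPM in the control libraries and at 8.64, 5.32 and 5.81 in the knockdown libraries, from 81 to 136 reads per library. Its log2 ratio was -0.27 ± 0.28 (SE, edgeR adjusted p = 0.623), and was -0.03 without knockdown repeat 1. ITGB8 was at 1.91, 2.22 and 4.74 normalized CPM in the control libraries and at 3.94, 3.10 and 3.04 in the knockdown libraries. Here control repeat 3 was the highest library and control repeats 1 and 2 the lowest, the opposite of ITGB4. The log2 ratio was -0.19 ± 0.40 (SE, edgeR adjusted p = 0.822), and changed sign to 0.05 without control repeat 1 and to 0.15 when control repeat 2 was given the 79 reads of its FPKM column in place of its 36 counts. Without control repeat 3 it was -0.71, with separated groups and an edgeR adjusted p of 0.172. The interval of 2 SE with all libraries ran from -0.98 to 0.61, at 31 to 74 reads per library.

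**Figure D2:**
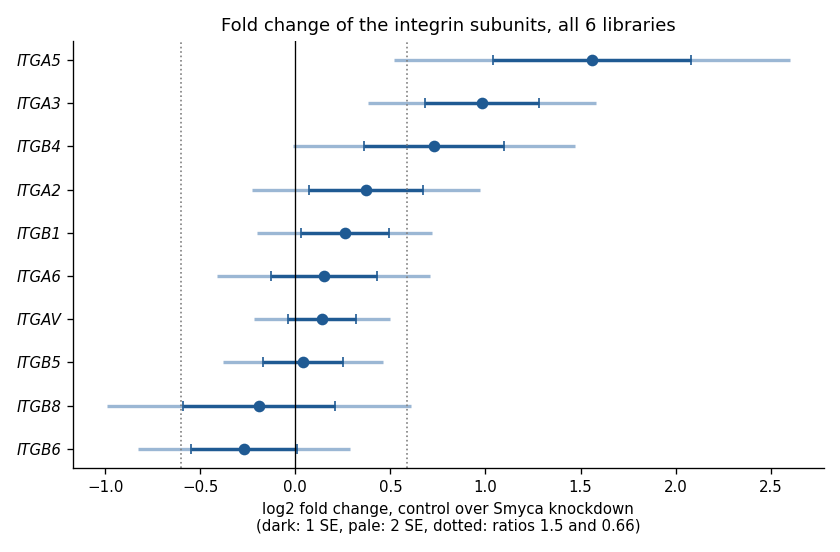
Log2 ratio of control over Smyca knockdown (horizontal axis) of the 10 genes, fitted by edgeR over 3 control and 3 knockdown libraries. Dark bars are 1 SE and pale bars 2 SE on each side, and dotted lines mark ratios of 1.5 and 0.66. ITGA5 at 1.56, ITGA3 at 0.98 and ITGB4 at 0.73 lie past the right dotted line, and the pale bars of ITGA5 and ITGA3 lie wholly above 0.

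Several members were high or low in the same libraries. Control repeat 1 was above every knockdown library in 6 genes (ITGA2, ITGA3, ITGA5, ITGA6, ITGB1 and ITGB4), control repeat 2 in 5 and control repeat 3 in 2, ITGA3 and ITGB8. Control repeat 3 was below every knockdown library in 3 genes, ITGB1, ITGB4 and ITGB6. With its FPKM reads, control repeat 2 was above every knockdown library in 2 genes, ITGA3 and ITGB8, and below every one in 4, so that its count of 5 rests on the count column. The shares of all genes at these positions were not counted. Over 10536 genes, the chi-square per gene of control repeat 3 was 133 and 86.7 against control repeats 1 and 2. It was 64.4, 85 and 88 against knockdown repeats 1, 2 and 3. The summed level of the 10 genes was 4283, 2548 and 1599 normalized CPM in the control libraries and 1928, 1652 and 2064 in the knockdown libraries, of which ITGB4 made up 46.6 to 61.4%. Control repeat 3 thus had the lowest sum of all 6 libraries, and control repeat 1 the highest. The number of members with an unadjusted p under 0.05 was 1 without control repeat 1 (background 11.2%) or without knockdown repeat 2 (10.8%), and 5 without control repeat 3 (29.6%). The number whose groups did not overlap was 6 without control repeat 3 (background 49.2%), 3 without knockdown repeat 3 (39.3%) and 2 without control repeat 1 (29.5%).

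**Figure D3:**
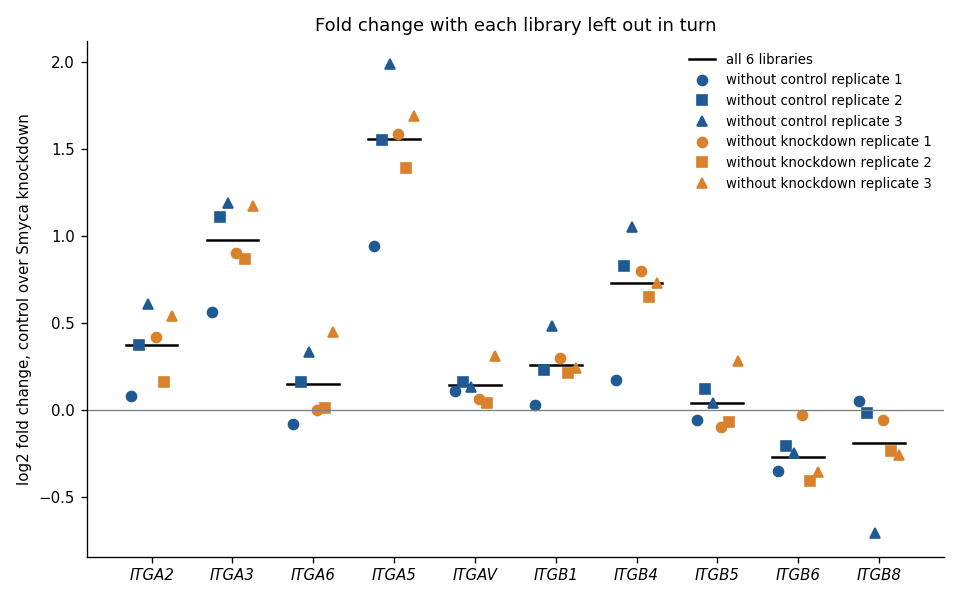
Log2 ratio of control over Smyca knockdown (vertical axis) of each gene with all 6 libraries (black line) and with 1 library left out (points, coloured by the group and shaped by the repeat that was left out). Leaving out control repeat 1 brings ITGB4 from 0.73 to 0.17 and leaving out control repeat 3 brings it to 1.05.

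For 9 of the genes, the most similar profile over the 6 libraries was sought among the other members and the genes of 5 related lists with a mean of at least 100 counts, by Pearson correlation of log2 normalized CPM, given as a description. The points share their libraries, including control repeats 1 and 3 at the extremes. ITGA5 was most like ITGA7 (r = 0.99), ITGB1 most like VCL (0.99), ITGB4 most like LAMB3 (0.98) and ITGA3 most like FERMT2 (0.97). ITGB5 and ITGAV were both most like DST (0.97 and 0.95), and ITGA6 was most like LAMC1 (0.94). ITGB8 was most like CD81 (0.84) and ITGB6 most like PARVA (0.68). Within the members, ITGB4 followed ITGB1 (0.96) and ITGA5 (0.95), ITGAV followed ITGB5 (0.91), and ITGB8 ran against ITGB1 (-0.89).

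Because α and β chains reach the surface as pairs, the log2 ratio of α to β mRNA per kilobase was formed within each library for 9 known pairs, which also removes the scaling between libraries. The groups were separated in 1 pair, ITGA3/ITGB1, with -1.79, -2.34 and -1.97 in the control libraries and -2.97, -2.88 and -2.39 in the knockdown libraries. ITGA3 mRNA was thus lower relative to ITGB1 mRNA in each knockdown library. The means differed by 0.71, and the exact two-sided permutation p of 0.1, the smallest possible, was 0.75 after Benjamini-Hochberg adjustment over the 9 pairs. ITGA5/ITGB1 was -1.02, -1.46 and -2.58 in the control libraries and -2.73, -3.01 and -2.46 in the knockdown libraries. Control repeat 3 lay within the knockdown range, and the difference of 1.04 had an exact permutation p of 0.2, adjusted to 0.75. It was 0.66 with the FPKM reads of control repeat 2, and 0.71 to 1.49 when 1 library was left out. ITGAV/ITGB5 was the most even pair, between -2.85 and -2.52 over all 6 libraries, with a difference of 0.09 (exact permutation p = 0.5, adjusted 0.75). That difference was 0.03 to 0.16 when 1 library was left out. ITGA6/ITGB4 was -2.47 ± 0.45 over the control libraries and -2.06 ± 0.48 over the knockdown ones (SD, n = 3), a difference of -0.41 (exact permutation p = 0.5, adjusted 0.75) that was -0.15 without knockdown repeat 3, -0.17 without control repeat 1 and -0.62 without knockdown repeat 1. In the other 5 pairs the groups overlapped, with differences between -0.05 and 0.45 and exact permutation p-values between 0.4 and 1, adjusted 0.75 to 1. When 1 library was left out, the difference ran from 0.11 to 0.63 for ITGAV/ITGB6 and from 0.17 to 0.85 for ITGAV/ITGB8.

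**Figure D4:**
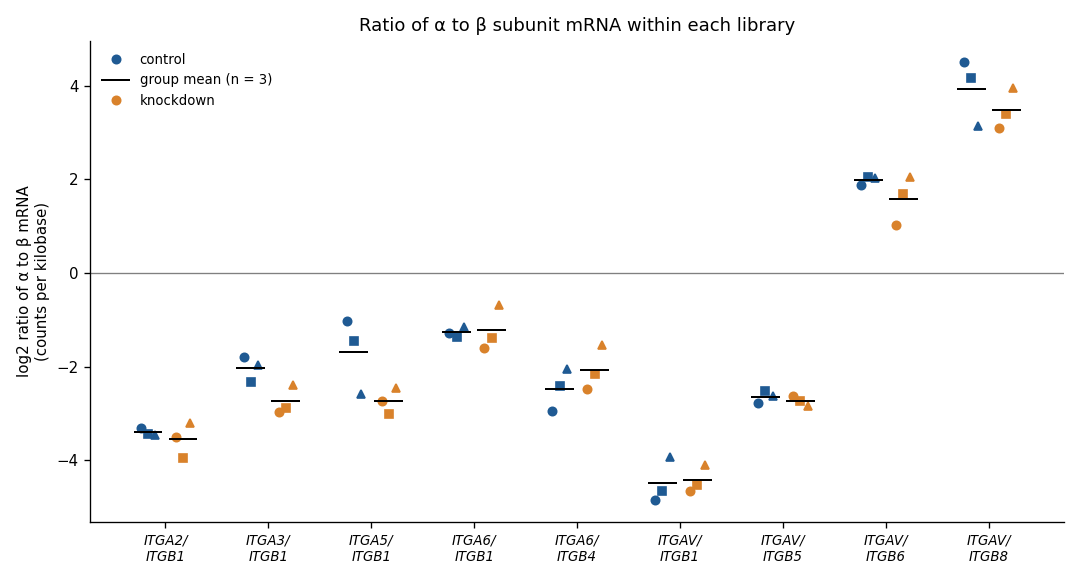
Log2 ratio of α to β subunit mRNA, in counts per kilobase of transcript (vertical axis), for 9 integrin pairs in the 3 control (blue) and 3 Smyca knockdown (orange) libraries. Points are libraries, shaped by repeat as circle, square and triangle for 1, 2 and 3, and black lines are group means. The ITGA3/ITGB1 control points lie at -2.34 or above and the knockdown points at -2.39 or below.

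Lists of related genes, 5 in all, were read beside the members. In none of them was a gene called a DEG, and counts at an unadjusted p under 0.05 by edgeR are given with their direction, where the background was 10.4% of genes higher and 8.74% lower in the control. Over all genes, the share at an unadjusted p under 0.05 moved from 19.2% to 11.2, 13.6 and 29.6% without control repeats 1, 2 and 3, and to 15.8, 10.8 and 19.1% without knockdown repeats 1, 2 and 3, and these shares are the background of the list counts without a library. Medians of the 5 lists, unlike that of the members, were not taken with a library left out. Of the 16 other integrin subunits, 7 were tested, and their median log2 ratio was 0.75. That median is the value of ITGA7, and among the 7 were genes with at most 15, 49 and 62 counts in any library. ITGA7, another laminin-binding α chain, was higher in the control and ITGAE, the α chain that pairs with β7, was lower. ITGA7 was at 102, 89.6 and 46.3 normalized CPM in the control libraries and at 49.1, 41.7 and 50.8 in the knockdown libraries, so that control repeat 3 again lay with the knockdown (log2 ratio 0.75 ± 0.27, SE, edgeR adjusted p = 0.193). ITGAE was at 20.5, 25.0 and 33.8 in the control and at 35.0, 47.7 and 43.6 in the knockdown, with no overlap (log2 ratio -0.67 ± 0.22, SE, edgeR adjusted p = 0.158). ITGB7, its β partner, was at 29.7, 16.5 and 1.66 in the control and at 14.2, 8.87 and 2.38 in the knockdown, with repeat 3 of each group the lowest (edgeR adjusted p = 0.591). The 9 that were not tested had at most 62 counts in any library. That highest count was of ITGAX, a leukocyte α chain named here after its values were seen, with 62, 30 and 5 counts in the control libraries and 3, 4 and 1 in the knockdown libraries, without overlap. The count of 2 in this list was 5 without control repeat 3 (background 29.6%), 4 without knockdown repeat 3 (19.1%), and 1 without control repeat 1 (11.2%), control repeat 2 (13.6%) or knockdown repeat 2 (10.8%).

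All 30 adaptors of integrin tails were tested, with a median log2 ratio of 0.04, and 6 had an unadjusted p under 0.05, 4 of them higher and 2 lower in the control. TNS3, a tensin of focal adhesions, was at 254, 285 and 243 normalized CPM in the control libraries and at 333, 427 and 517 in the knockdown libraries. Every knockdown library was above every control library (log2 ratio -0.71 ± 0.18, SE, edgeR adjusted p = 0.126). TNS1, another tensin, was at 62.4, 36.9 and 2.56 in the control and at 3.81, 2.28 and 7.33 in the knockdown, with control repeat 3 among the knockdown libraries (log2 ratio 2.93 ± 0.92, SE, edgeR adjusted p = 0.153). ZYX, which encodes the focal adhesion protein zyxin, was at 351, 266 and 214 in the control and at 203, 195 and 158 in the knockdown, without overlap (log2 ratio 0.58 ± 0.20, SE, edgeR adjusted p = 0.186). The count of 6 was 2 without control repeat 1 (background 11.2%) and 12 without control repeat 3 (29.6%).

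Of the 20 matrix ligands, 15 were tested, with a median log2 ratio of 0.62. An unadjusted p under 0.05 was found in 5, of which 4 were higher and 1 was lower in the control. LAMB1, a laminin β chain, was at 144, 105 and 112 normalized CPM in the control libraries and at 75.9, 66.3 and 89.7 in the knockdown libraries (log2 ratio 0.63 ± 0.18, SE, edgeR adjusted p = 0.137). COL1A1, an α chain of type I collagen, was at 20.5, 21.2 and 8.84 in the control and at 8.19, 6.46 and 8.72 in the knockdown (log2 ratio 1.11 ± 0.34, SE, edgeR adjusted p = 0.147). Neither gene's groups overlapped, although control repeat 3 of COL1A1 was close to the knockdown libraries. NID1, the basement membrane linker nidogen, was lower in each control library, at 55.8, 70.1 and 40.6 against 82.2, 76.6 and 85.0 (log2 ratio -0.55 ± 0.20, SE, edgeR adjusted p = 0.196). The count of 5 was 9 without control repeat 3 (background 29.6%), 2 without control repeat 1 (11.2%) or knockdown repeat 1 (15.8%), and 3 without knockdown repeat 2 (10.8%) or knockdown repeat 3 (19.1%).

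All 7 hemidesmosome and tetraspanin partners of integrins were tested, with a median log2 ratio of 0.20, and 1, COL17A1, a hemidesmosomal collagen named here after its value was seen, had an unadjusted p under 0.05, higher in the control. PLEC, which encodes plectin, the linker of β4 to keratin, was at 3537, 2279 and 1360 normalized CPM in the control libraries and at 2158, 1819 and 2085 in the knockdown libraries (log2 ratio 0.24 ± 0.30, SE, edgeR adjusted p = 0.689). As for ITGB4, control repeat 1 was the highest of the 6 libraries and control repeat 3 the lowest. The tetraspanins CD9 and CD82 had log2 ratios of 0.22 ± 0.20 and 0.20 ± 0.50 (SE, edgeR adjusted p = 0.571 and 0.853). The count of 1 was 3 without control repeat 3 (background 29.6%), 2 without knockdown repeat 3 (19.1%), and 0 without control repeat 1 (11.2%), knockdown repeat 1 (15.8%) or knockdown repeat 2 (10.8%).

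Of the 9 genes of TGF-β ligands and latency proteins, 7 were tested, with a median log2 ratio of 0.45, and 3 had an unadjusted p under 0.05, 2 of them higher and 1 lower in the control. LTBP4, a latent TGF-β binding protein, was at 270, 211 and 166 normalized CPM in the control libraries and at 132, 107 and 86.2 in the knockdown libraries. All control libraries were higher (log2 ratio 0.99 ± 0.22, SE, edgeR adjusted p = 0.114). LTBP3 was at 717, 511 and 328 in the control and at 358, 344 and 325 in the knockdown, with overlap (log2 ratio 0.60 ± 0.26, SE, edgeR adjusted p = 0.249). TGFB1, the ligand whose latent form αVβ6 and αVβ8 bind, was at 346, 264 and 273 in the control and at 276, 257 and 245 in the knockdown, also with overlap (log2 ratio 0.18 ± 0.16, SE, edgeR adjusted p = 0.549). The count of 3 was 6 without control repeat 3 (background 29.6%) and 1 without control repeat 1 (11.2%), control repeat 2 (13.6%) or knockdown repeat 1 (15.8%).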

How the data were processed

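Total RNA was depleted of rRNA, and strand-specific libraries were sequenced as paired ends. Mapping by the authors used TopHat v2.0.12 and GRCh38, and counting used HTSeq, whose annotation release and strand setting are not given in the sources used here. The authors deposited raw read counts and FPKM values of 58302 genes per library. The counts were tested. The deposited FPKM values served to check them and gave whole reads for control repeat 2 as an alternative (16759253 in all).

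Groups came from the sample labels, and 57532 identifiers got a symbol from GENCODE release 44. Tests were run by edgeR 4.0.16 under R 4.3.3 (TMM, filterByExpr, quasi-likelihood test of all 6 libraries, Benjamini-Hochberg over 15075 genes). The biological coefficient of variation was 25.2% (27.8% in the control, 22% in the knockdown). A DEG needed an adjusted p under 0.05 and a ratio either from 1.5 upwards or up to 0.66, the criteria of the study, whose own DESeq was not run. Lengths are those of Ensembl canonical transcripts. Motifs were searched in RefSeq promoters.

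The alternatives were RLE factors, total counts, a filter of 1 count in all, a minimum of 10 counts per library, DESeq2 1.42.0, the repeat number as a block, each library left out in turn, the reads behind the FPKM column and, added after the data were seen, the lengths behind the FPKM values for the order of levels. On simulated counts for control against Smyca knockdown (14847 genes), 100% of the genes changed by a log2 of 2 were recovered. The simulation gave every gene the same biological coefficient of variation, 25.2%, and held no library that stood apart from its group. It therefore does not give the share of such genes that would be recovered in these libraries. The members and lists were chosen with earlier results of these data known. From each of the 5 lists the text names DEGs and at most 3 genes of the smallest unadjusted p with a mean of at least 100 counts, and for 9 members the gene with the highest correlation. A few results are not reported here. COL17A1 and ITGAX are named to complete a count.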

Additional observations from a re-analysis of the deposited data

How the results depend on the processing

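The number of DEGs depended on the processing. Over all genes it was 4, and was 8 with total counts, 916 without a filter, 836 with DESeq2, 0 with the repeat block, 10 with the FPKM reads of control repeat 2, and 0 to 1628 when 1 library was left out. Among the members it was 0, and was 2 without a filter (ITGA3 and ITGA5), 1 with DESeq2 (ITGA3) and 0 to 3 when 1 library was left out. The cause was not tested. RLE factors and a minimum of 10 counts moved no count of members. At an unadjusted p under 0.05, the share of all genes was 19.2%, and was 20.4% with the FPKM reads, 18.9% with total counts, 13.2% without a filter and 10.8 to 29.6% when 1 library was left out. The members (2) came to 1 with the FPKM reads and 1 to 5 when 1 library was left out, and their number without overlap to 1 to 6. The other integrins (2) came to 0 with the FPKM reads and 1 to 5, the adaptors (6) to 2 to 12, the ligands (5) to 8 with total counts, 10 without a filter, 3 with the FPKM reads and 2 to 9, the hemidesmosome partners (1) to 0 with the FPKM reads and 0 to 3, and the TGF-β genes (3) to 1 with the FPKM reads and 1 to 6.

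The repeat numbers were not taken as pairs, since the deviations of same-numbered libraries from their group means correlated at 0.0536, 0.0938 and 0.0207, none over 0.1. With the repeat as a block, 17% of all genes had an unadjusted p under 0.05, and 1 member, 1 other integrin, 4 adaptors, 4 ligands, 0 hemidesmosome partners and 1 TGF-β gene did.

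The median log2 ratio of the members was 0.07 to 0.41 when 1 library was left out. Signs changed for small differences. ITGA6 (-0.08 to 0.45 when 1 library was left out) had a log2 ratio of -0.00 with the FPKM reads, -0.08 without control repeat 1 and -0.00 without knockdown repeat 1. ITGB5 (-0.10 to 0.28) had -0.06 without control repeat 1, -0.10 without knockdown repeat 1 and -0.07 without knockdown repeat 2. ITGB8 (-0.71 to 0.05) had 0.15 with the FPKM reads and 0.05 without control repeat 1. The ITGA2/ITGB1 difference (-0.06 to 0.31) was -0.06 without knockdown repeat 2. That of ITGA6/ITGB1 (-0.24 to 0.22) was 0.02 with the FPKM reads, 0.00 without control repeat 2 and 0.22 without knockdown repeat 3. That of ITGAV/ITGB1 (-0.32 to 0.14) was 0.22, 0.14, 0.04 and 0.12 with the FPKM reads and without control repeat 1, control repeat 2 and knockdown repeat 3. With total counts, the median of all genes shifted from 0.036 to 0.106.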
